A study of Mus musculus with 37 samples.

Results

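The ubiquitin system attaches ubiquitin to proteins and removes it again, and 117 of its genes were followed here through 5 types of mouse myeloid cell given LPS, IL-10 or both. The members were the genes of the deposited table whose names mark them as ubiquitin-specific proteases, E2 conjugating enzymes, RING finger proteins, F-box proteins, cullins, OTU deubiquitinases, MARCH, CBL or Pellino ligases, or HECT ligases of the Ube3 series, without Usp18, and with a value of at least 10 in any group. They made up 117 of the 6509 named genes of the table and 357 of its 16993 named transcripts. The last line of the table is broken and it may be cut short, so members of these families that it does not list, such as Cul1, were not analysed here, and every count below is over the genes listed. No gene that matched by name was lost to the minimum, and the lowest highest values among the members were 25.0 for Fbxo47, 32.5 for Ube2cbp and 58.0 for Fbxo36. There were 35 RING finger proteins, 30 F-box proteins, 20 ubiquitin-specific proteases, 17 E2 genes, 6 MARCH ligases, 3 cullins, 3 OTU deubiquitinases and 1 each of the CBL (Cblb), HECT (Ube3b) and Pellino (Peli1) ligases. Usp6nl, a GTPase-activating protein, and Ube2cbp, an E3 ligase in spite of its name, belong only by their symbols.

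Ubiquitin is activated by an E1 enzyme, passed to an E2 and placed on a target by an E3 ligase, which gives the reaction its specificity. RING ligases hold the E2 beside the target, F-box proteins bring targets to cullin ligases, HECT ligases carry the ubiquitin themselves, and deubiquitinases take it off. In myeloid cells some ubiquitin chains send proteins to the proteasome, others assemble the signalling complexes below Toll-like receptors, and membrane-bound ligases send surface proteins such as MHC class II to the lysosome.

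All cells came from C57Bl6cJ mice: thioglycollate-elicited peritoneal macrophages that adhered to plastic, bone marrow neutrophils from pooled mice kept overnight in GM-CSF, dendritic cells enriched from spleen with magnetic beads (sDCs), and bone marrow cultures of mast cells and of eosinophils. Macrophages, neutrophils, sDCs and mast cells were each untreated, given IL-10 at 100 ng/ml, given LPS at 100 ng/ml, or given IL-10 and then LPS, while the eosinophil groups were untreated and LPS only. Cells without LPS were collected at 4 h and cells with LPS at 8 h, after 4 h of LPS, so LPS and the longer culture cannot be told apart. IL-10 plus LPS against LPS, in contrast, compares cells of the same age in culture.

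Each of the 18 groups has a single value per transcript, the authors' mean over 2 biological replicates of a normalised tag count, and the spread between the replicates is not in the table. Transcripts were summed per gene. Because there is only 1 value a group, no test, error or p-value could be given for any difference below; a gene was called higher or lower where log2(sum + 1) differed by at least 1, that is 2-fold, and the counts are descriptions read against the same count over all genes. A gene was kept in a cell type where at least 1 of its groups there reached 10. These are bulk samples, in which fewer cells of a type and less RNA per cell cannot be told apart.

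The labels were checked against marker genes. The macrophage, mast cell and eosinophil lists were highest in their own cells, with Cd68 at 185724.5 in untreated macrophages, Tpsb2 at 187854.5 in mast cells and Epx at 185338 in eosinophils. The summed neutrophil list (Ly6g, Mmp8, Retnlg and Cxcr2) was 195700.5 in untreated neutrophils but 24577 with LPS and 55051.5 with IL-10 plus LPS, and untreated neutrophils also held Epx at 19128.5 and Cd79b, a B cell gene, at 2143.5. Mmp8, Retnlg and Cxcr2 were each highest in neutrophils among the untreated cells, but Ly6g was higher in eosinophils (188.5) than in neutrophils (161.5). The summed macrophage list was 220684 in untreated macrophages and 114532.5 with LPS, and the dendritic list (Itgax, Xcr1 and Clec9a) was 4508.5 in untreated sDCs and 1069.5 with LPS. The sDCs had the highest Xcr1 (189.5) and Clec9a (243.5) of the untreated cells but less Itgax (4075.5) than macrophages (13861), and they held the mast cell gene Kit at 8800. The part that other cells, or these differences, play in the LPS values below was not tested.

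In untreated cells the members were expressed at a higher and more even level than genes in general. The median gene sum was 940 for members and 467.5 for all genes, and per kilobase of transcript the medians were 314.8 and 177.4. The highest and the lowest of the 5 cell types differed by a median of 2.23-fold for members and 4.093-fold for all genes. The most abundant member per kilobase, by its median over the untreated cell types, was Ube2d3, an E2 enzyme and a partner of many RING ligases. Untreated Ube2d3 stood at 16584.5 in eosinophils, 16358.5 in neutrophils, 11256 in sDCs and 11016 in macrophages, with mast cells the lowest at 6533.5; it has near-identical paralogs, between which RSEM apportions shared reads.

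Few members marked a cell type. At 4-fold or more over the next cell type there were 5 of 117 members, or 4.27%, beside 15.9% of all genes. Fbxo32, the muscle atrophy F-box protein atrogin-1, stood at 2415 in untreated macrophages and 314 in sDCs, the next highest, with 126.5 in mast cells, 66.5 in eosinophils and 40 in neutrophils. Rnf149, a transmembrane RING ligase, stood at 9943.5 in macrophages and between 787 and 2033 in the other untreated cells. March8, which like March1 ubiquitinates surface proteins, stood at 6992 in mast cells and 1571 in eosinophils, the next highest. Rnf152, a lysosomal RING ligase that acts on nutrient signalling, stood at 629 in sDCs and at 12.5 or less elsewhere, and Rnf43, a ligase that removes Wnt receptors, at 870.5 in sDCs and 176 in both mast cells and eosinophils.

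The 13 members listed for the cell cycle and DNA damage shared no pattern over the untreated cells: 7 were highest in eosinophils, 4 in sDCs and 2 in mast cells, and 7 stayed within 2-fold over the 5 cell types. The 3 described here were chosen after their values were seen. Ube2c, the E2 that starts chains for the anaphase-promoting complex, was 3168 in untreated eosinophils and 2157.5 in neutrophils, against 203 in macrophages, 74.5 in sDCs and 54.5 in mast cells. Fbxo5, an inhibitor of the same complex, was 711 in eosinophils and 578 in neutrophils and between 73.5 and 109 in the other 3. Ube2t, the E2 of the Fanconi anaemia pathway, was likewise highest in these 2 cell types, at 210.5 and 150.5, with 64.5 or less in the rest. Mast cells, which were also grown from bone marrow, were the lowest of the 5 for all 3 genes. Others on the list differed: Rnf168, a ligase of the DNA damage response, was highest in mast cells (666.5) and lowest in macrophages (412).

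With LPS a smaller share of members than of all genes was called in each of the 5 cell types. In macrophages 22 of 115 members kept were called, 8 higher and 14 lower, or 19.13%, beside 27.6% of all genes. In neutrophils 13 of 116 were called, 6 higher and 7 lower, or 11.21% beside 16.6%. In sDCs 17 of 117 were called, 7 higher and 10 lower, or 14.53% beside 20.5%. Mast cells had 5 calls of 116, or 4.31% beside 10.2%, and eosinophils 1 of 115, or 0.8696% beside 2.86%. Some of these calls rest on low values: both sums were under 50 for 3 calls each in macrophages, mast cells and neutrophils, for 2 in sDCs and for the only eosinophil one (Ube2cbp, 13.5 untreated and listed at 0 with LPS). With a minimum of 50 in place of 10 the member shares of macrophages, neutrophils, sDCs, mast cells and eosinophils were, in that order, 17.3%, 9.17%, 13.6%, 1.85% and 0.0%, beside 25.0%, 14.8%, 19.2%, 8.45% and 1.47% of all genes.

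**Figure D1:**
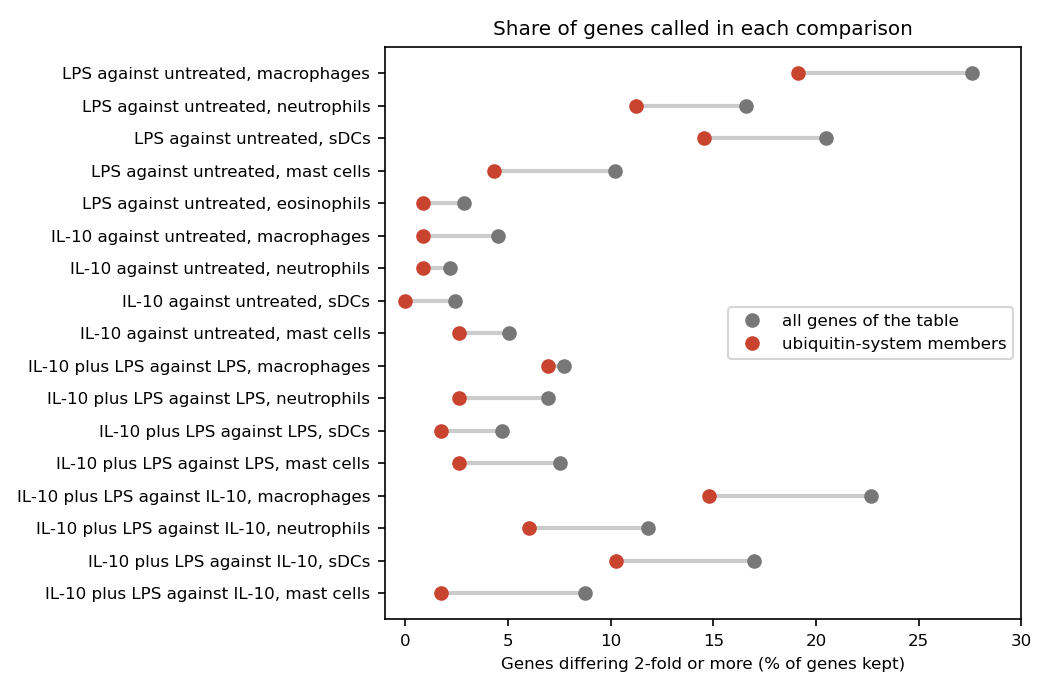
Share of genes that differed 2-fold or more, in percent of the genes kept (horizontal axis), for the 117 members (red) and all genes of the table (grey) in the 17 comparisons (vertical axis). Each red point lies to the left of its grey point; the nearest pair is IL-10 plus LPS against LPS in macrophages, with 6.957% of members and 7.7% of all genes, an order that turned with a minimum of 50 (5.45% and 4.77%).

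The members called higher with LPS included a ligase of the signalling pathway itself, Peli1, and the deubiquitinase Usp25. Among the 112 members kept in all 5 cell types, 6 were called higher in at least 2 of them (Fbxl22, Fbxo40, March5, Peli1, Rnf114 and Usp25), or 5.36%, beside 7.1% of all genes, and 3 in at least 3 (Fbxl22, Rnf114 and Usp25), or 2.68% beside 3.74%. Fbxl22 and Fbxo40 are F-box proteins with highest sums of 122.5 and 63.5 in any group, both in untreated eosinophils, where neither was called. Where they were called the untreated values were lower. Fbxl22 stood at 11.5 in macrophages, 30 in sDCs and 34 in mast cells, and Fbxo40 at 8.5 in neutrophils and 4 in sDCs.

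Peli1 encodes Pellino 1, a RING-type ligase that acts with the IRAK kinases below Toll-like receptors (NCBIM37 chr11:20991294-21050326, plus strand). In macrophages it stood at 1204.5 untreated, 1316 with IL-10, 8250 with LPS and 3804 with both. In neutrophils the values were 1338.5, 1460, 2427.5 and 1916.5, and in sDCs 4748, 4102.5, 13549 and 11469. The LPS values were thus the highest of the 4 in each of these cell types, with log2 fold changes over untreated of 2.77, 0.86 and 1.51. Mast cells (654.5 untreated, 621 with LPS) and eosinophils (669.5 and 612.5) were slightly lower with LPS.

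Usp25 encodes a deubiquitinase known to act on TRAF adaptors (chr16:77014314-77117024, plus strand). It stood at 4018 in untreated macrophages and 8261 with LPS, at 3873 and 8733.5 in neutrophils, and at 2481 and 8198.5 in sDCs. The log2 fold changes were 1.04, 1.17 and 1.72, while mast cells (2735 and 3588) and eosinophils (3050.5 and 3107) stayed within 2-fold. The untreated levels of Usp25 thus lay within 2-fold of each other in the 5 cell types.

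March5, a ligase of the outer mitochondrial membrane (chr19:37282033-37296629, plus strand), stood at 1427 in untreated macrophages and 3832.5 with LPS, and at 1332.5 and 6030.5 in sDCs. The difference in neutrophils, 796.5 to 1216, was under 2-fold, at 0.61 on the log2 scale. Rnf114, a RING ligase linked to interferon signalling (chr2:167318145-167341673, plus strand), went from 1798.5 to 4454 in macrophages, 1668 to 3614.5 in neutrophils and 3148.5 to 6872 in sDCs, or 1.31, 1.12 and 1.13 on the log2 scale. With its largest transcript alone the sDC difference was 0.90, under 2-fold. Its exons share 129 bases with Spata2 on the other strand, and the counting is not stated to have used strand. Rnf19a, a ring-between-ring ligase (chr15:36169689-36212902, minus strand), was called in sDCs, where it stood at 1177 untreated and 4986 with LPS; its macrophage values were 822 and 1019.5. Fbxo30 and Rnf34 were called higher in neutrophils, and Rnf145 and Usp53 in macrophages.

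F-box proteins were the class with most members called lower with LPS. In macrophages 9 of 30 were lower (Fbxl20, Fbxo10, Fbxo21, Fbxo32, Fbxo36, Fbxo40, Fbxo47, Fbxo8 and Fbxw4) and 1 was higher (Fbxl22), beside 14.8% of all genes lower and 12.7% higher in that comparison. In neutrophils 5 of 30 were lower and 3 higher, beside 7.88% and 8.71% of all genes. In sDCs 5 were lower and 2 higher, beside 11.5% and 9.04%. In mast cells 3 were lower and 1 higher, beside 5.46% and 4.76%, and eosinophils had 0 calls among 29 kept. Several of these F-box calls rest on low values. Both sums were under 50 for Fbxo40 and Fbxo47 in macrophages and for Fbxo32, Fbxo40 and Fbxo47 in neutrophils. The same held for Fbxo40 and Fbxo48 in sDCs and for Fbxo10 and Fbxo47 in mast cells. Over the 5 cell types 12 of the 30 F-box proteins were called at least once, as were 9 of 35 RING finger proteins, 4 of 20 ubiquitin-specific proteases, 2 of 6 MARCH ligases and 2 of 17 E2 genes. The protease calls include Usp6nl and the E2 calls Ube2cbp, which belong to these classes only by their symbols. Of all genes kept in the 5 cell types, 35.5% were called at least once in either direction, and of the members kept in them 24.1%. The 3 cullins in the table (Cul2, Cul3 and Cul5), scaffolds of ligases that use receptors other than F-box proteins, and the 3 OTU deubiquitinases were called in none. The largest difference among cullins was 0.39 on the log2 scale (Cul2 in macrophages).

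Fbxo32 had the largest change of any member with LPS (chr15:58011634-58046433, minus strand). In macrophages it stood at 2415 untreated, 1343 with IL-10, 52 with LPS and 66 with both. In sDCs the values were 314, 186, 75.5 and 67.5, in mast cells 126.5, 47.5, 43.5 and 24, and in neutrophils 40, 25.5, 11.5 and 6. The untreated value was the highest of the 4 in each of these cell types and the IL-10 value the next. The log2 fold changes with LPS were -5.51 for macrophages, -2.04 for sDCs, -1.52 for mast cells, -1.71 for neutrophils and -0.49 for eosinophils (66.5 to 47), and those with IL-10 alone were -0.85, -0.75, -1.39 and -0.63 in macrophages, sDCs, mast cells and neutrophils. Among the 112 members kept in all 5 cell types, 1 (Fbxo32) was called lower in at least 4, or 0.893%, beside 0.523% of all genes so kept. Of its exon bases, 186 are shared with Gm15943 on the other strand.

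Fbxl20, the receptor subunit of another cullin ligase (chr11:97943868-98011717, minus strand), stood at 953 in untreated macrophages and 419 with LPS, at 1627.5 and 454.5 in neutrophils and at 3160 and 1326.5 in sDCs, or -1.18, -1.84 and -1.25 on the log2 scale. In sDCs the call rests on the smaller transcripts: its largest transcript alone gave -0.91. Fbxo10 was called lower in all 4 cell types in which it was kept, from 271 to 114 in macrophages, 716 to 209 in neutrophils, 278 to 138 in sDCs and 42.5 to 18 in mast cells. It was at 6 and 6.5 in the eosinophil groups and not kept there, so the count given for Fbxo32 above leaves it out. Fbxw11, which as beta-TrCP binds phosphorylated inhibitors of NF-kB, went the other way without reaching 2-fold: it was above untreated in 5 of 5 cell types, by 0.12 to 0.80 on the log2 scale.

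**Figure D2:**
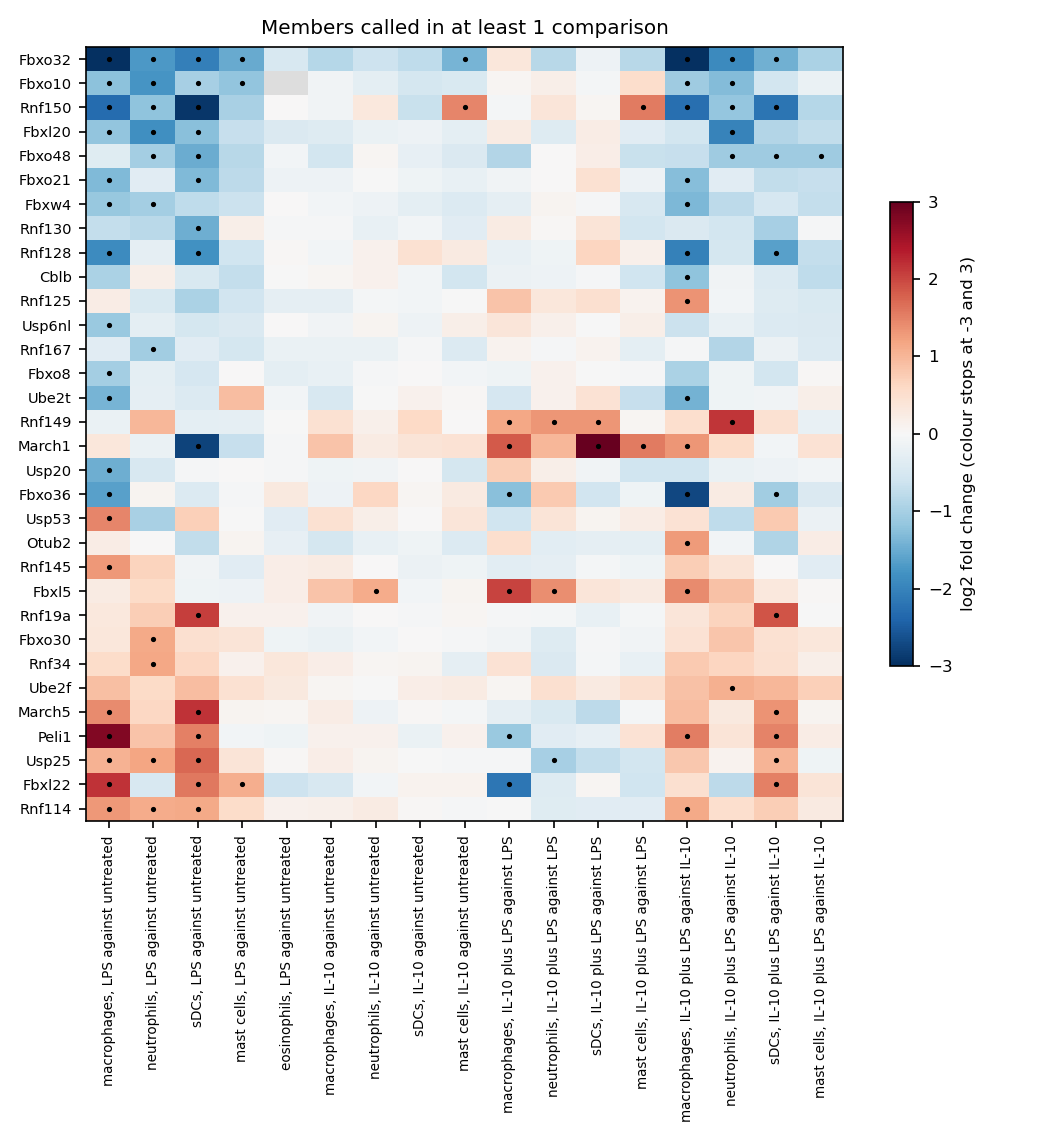
Log2 fold changes (colour, which stops at -3 and 3) of 32 members called in at least 1 of the 17 comparisons, ordered by their median over the LPS comparisons; dots mark calls and grey a gene not kept. Fbxo32, Rnf150 and Fbxo10 are at the top with the LPS columns blue, Peli1, Usp25 and Rnf114 at the bottom with them red, and March1, Rnf149 and Fbxl5 are red where IL-10 plus LPS is set against LPS; Fbxo40, Fbxo47, Rnf152 and Ube2cbp are called members left out because a group is listed at 0 or all their sums are under 50.

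Several RING proteins that cross the membrane were lower with LPS. Rnf128, Rnf130, Rnf149, Rnf150 and Rnf167 share a protease-associated domain outside the membrane and a RING inside, and they were grouped after their values were seen. With LPS, 2 of the 5 were called lower in macrophages (beside 14.8% of all genes), 2 in neutrophils (7.88%) and 3 in sDCs (11.5%), and 0 in mast cells and eosinophils. None of the 5 was called higher in any cell type, but Rnf149 in neutrophils was higher by 1.985-fold, just under the limit. The group is not complete: Rnf43 and Rnf215, also membrane RING proteins, were left out, and neither was called in any comparison. With LPS, Rnf215 stood at 1.07-fold of untreated in macrophages, 1.222 in neutrophils and 0.818 in sDCs. Rnf43 stood at 0.6092-fold in neutrophils and 0.965 in sDCs. Also left out were March5, the mitochondrial membrane ligase, and Rnf145, both called higher in macrophages. The median of the 5 in macrophages, neutrophils, sDCs, mast cells and eosinophils, in that order, was -0.72, -0.81, -1.46, -0.54 and -0.02 on the log2 scale, beside -0.15, -0.03, -0.14, -0.08 and -0.02 for all genes. Rnf128, known as GRAIL from unresponsive T cells (chrX:136097855-136207684, plus strand), stood at 12472 in untreated macrophages and 3357.5 with LPS, at 509 and 144 in sDCs and at 16891 and 11237.5 in mast cells. The first 2 pairs differed by -1.89 and -1.81 on the log2 scale and the mast cell pair by -0.59. Rnf150 (chr8:85387255-85615170, plus strand) stood at 1112.5 and 223.5 in macrophages, 637 and 83.5 in sDCs, and 71 and 30 in neutrophils, or -2.31, -2.92 and -1.22. Rnf130 was lower in sDCs (2342.5 to 852.5) and Rnf167 in neutrophils (2903.5 to 1407).

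LPS given after IL-10, against IL-10 alone, shares no group with LPS against untreated. It shows LPS in other samples, but in cells given IL-10 first, so it is a different contrast and not a repeat. The difference in time of collection, 4 h without LPS and 8 h with it, is the same in both. Members were again called less often than genes in general, in 14.78% against 22.7% in macrophages, 6.034% against 11.8% in neutrophils, 10.26% against 17.0% in sDCs and 1.724% against 8.75% in mast cells. Of the 14 members lower with LPS in macrophages, 10 were called lower here too, or 71.43%, beside 65.41% of all genes lower with LPS; in neutrophils 5 of 7 were (71.43% beside 52.45%), in sDCs 5 of 10 (beside 63.36%) and in mast cells 1 of 4 (25.0% beside 53.04%). Of the members higher with LPS, those called again were 2 of 8 in macrophages (Peli1 and Rnf114), or 25.0% beside 64.17% of all genes higher with LPS, 0 of 6 in neutrophils, beside 52.12%, and 0 of 1 in mast cells, beside 58.24%. In sDCs 5 of 7 were (Fbxl22, March5, Peli1, Rnf19a and Usp25), or 71.43% beside 70.75%. All those not called again were still above IL-10 alone, but by under 2-fold. In neutrophils the folds were 1.789 for Fbxo30, 1.566 for Rnf34, 1.415 for Rnf114, 1.368 for Fbxo47 and 1.333 for Fbxo40. In macrophages they included 1.912 for March5, 1.762 for Usp25 and 1.675 for Rnf145. Usp25 in neutrophils had the smallest, at 4067 with IL-10 and 4361 with both, against 3873 and 8733.5 without IL-10. The difference between these pairs was not tested. Ube2f, which conjugates NEDD8, passed 2-fold here in neutrophils, from 1676 to 3495.5.

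Few members were called with IL-10 alone. There was 1 call of 115 in macrophages, or 0.8696% beside 4.49% of all genes, 1 of 116 in neutrophils (0.8621% beside 2.17%), 0 of 117 in sDCs (0.0% beside 2.43%) and 3 of 116 in mast cells (2.586% beside 5.04%). The macrophage call was Rnf152, listed at 0 untreated and 1.5 with IL-10. The mast cell calls were Fbxo32, lower, Rnf150, which stood at 308.5 untreated and 855.5 with IL-10, and Ube2cbp, at 7.5 and 29. Rnf150 was thus higher with IL-10 in mast cells by 1.47 on the log2 scale and lower in sDCs by -0.67 (637 to 399), and the difference between the cell types was not tested. The neutrophil call was Fbxl5, taken up below.

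Set against LPS alone, IL-10 plus LPS called 8 of 115 members in macrophages (4 higher and 4 lower, 6.957% beside 7.7% of all genes, of which 3.12% higher and 4.58% lower), 3 of 116 in neutrophils (2.586% beside 6.93%), 2 of 117 in sDCs (1.709% beside 4.69%) and 3 of 116 in mast cells (2.586% beside 7.53%). The macrophage order turned with a minimum of 50, to 5.45% of members and 4.77% of all genes, and with the largest transcript only, to 11.5% and 11.1%. March1, Rnf149 and Fbxl5 were called higher in at least 2 cell types, or 3 of 114 members and 2.63% beside 1.46% of all genes, and March1 and Rnf149 in at least 3, or 1.75% beside 0.653%. No member was called lower in at least 2, beside 1.96% of all genes.

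**Figure D3:**
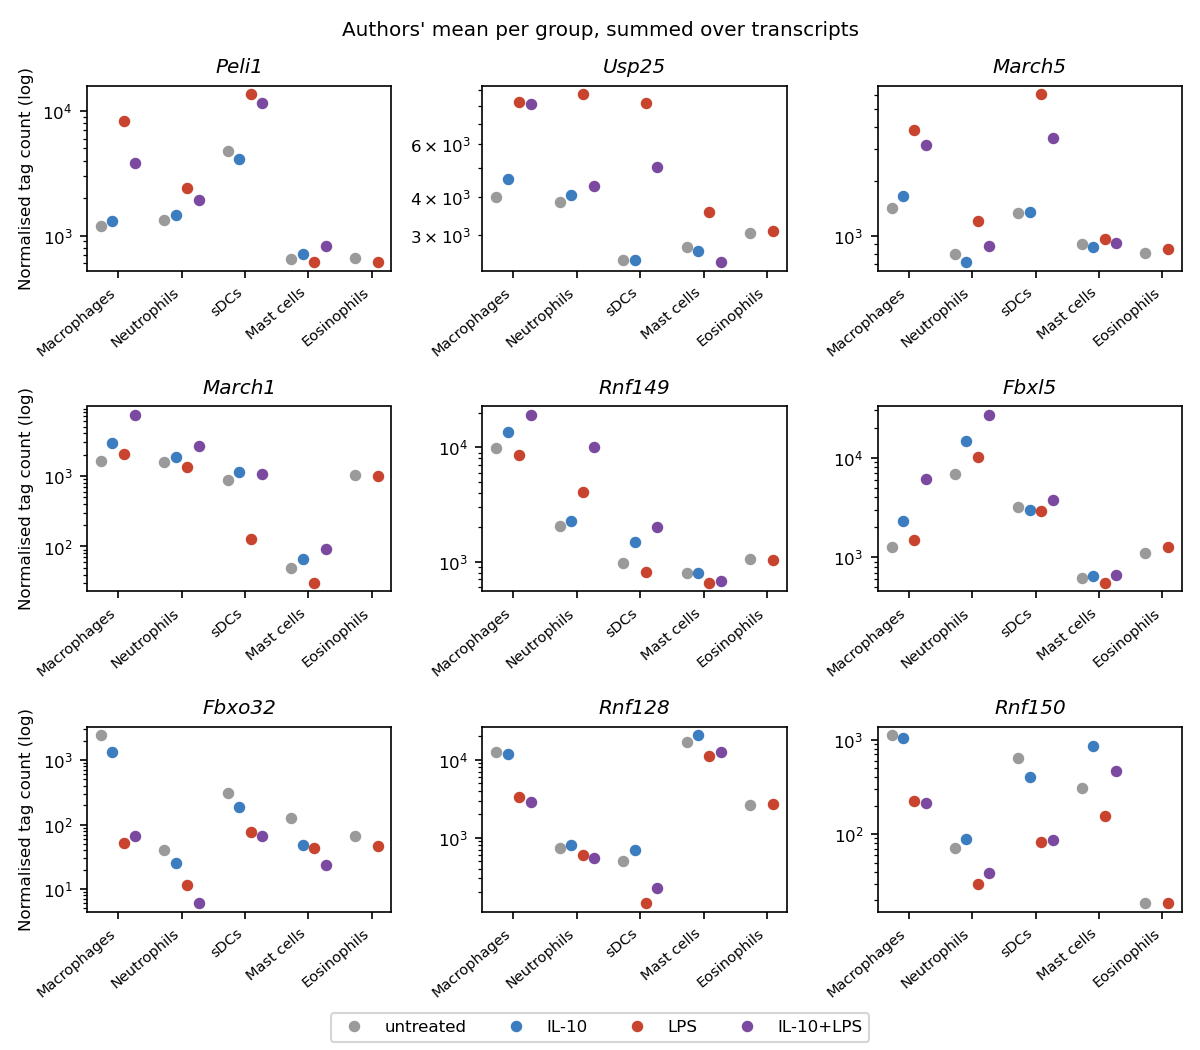
Authors' mean normalised tag count per group, summed over transcripts (vertical axis, log scale, scaled per panel), for 9 members in the 5 cell types; each point is 1 group, and colours mark the treatment. March1 in sDCs is at 126.5 with LPS and 1077 with IL-10 plus LPS, Rnf149 has its highest point with IL-10 plus LPS in macrophages, neutrophils and sDCs, and Fbxo32 in macrophages is at 2415 untreated and 52 with LPS.

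March1 ubiquitinates MHC class II and CD86 and so sends them from the surface to the lysosome (chr8:68141799-68995536, plus strand). In macrophages it stood at 1610.5 untreated, 2921 with IL-10, 2053 with LPS and 7330.5 with both. In sDCs the values were 874, 1138.5, 126.5 and 1077. In neutrophils they were 1551.5, 1845, 1356 and 2697.5, and in mast cells 49.5, 67.5, 30.5 and 91.5. With IL-10 plus LPS it was above LPS alone in all 4, by 1.84 in macrophages, 3.08 in sDCs, 0.99 in neutrophils and 1.55 in mast cells on the log2 scale, the neutrophil value lying just under the 2-fold limit. The shapes differ: in sDCs LPS alone was the low group (-2.78 against untreated) and the group given both stood near the untreated one, while in macrophages LPS alone was near untreated (0.35) and the group given both was the highest of the 4. Each of the 4 March1 transcripts was higher with IL-10 plus LPS than with LPS in macrophages, neutrophils and sDCs. Eosinophils, not given IL-10 here, stood at 1026.5 untreated and 997.5 with LPS. The exons of March1 share 546 bases with Gm15354 on the other strand.

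Promoter sequences of 90 of the 117 members, 121 promoters in all, were found in RefSeq (build GRCm38.p6, 250 bases before to 50 after the start). March1 is listed there as Marchf1 with 3 starts. Of the letters searched on both strands, TTCNNNGAA, which STAT factors bind, was in 7.44% of member promoters, 7.21% of those of the table's genes and 8.3% of all promoters. In the same order, GGG followed after any 3 bases by TTCC, for NF-kB, was in 6.61%, 6.44% and 5.56%, GAAA followed after any 2 bases by GAAA, for interferon regulatory factors, in 5.79%, 3.5% and 3.44%, and TATAAA in 5.79%, 7.51% and 13.6%. The 250 bases before the first March1 start (chr8:65617790-65618039, plus strand) are shown because March1 was, with Rnf149, the member called higher in the most cell types with IL-10 plus LPS against LPS, with its one STAT match in capitals; the start farthest downstream has another, in the 50 bases after the start:
March1, first start: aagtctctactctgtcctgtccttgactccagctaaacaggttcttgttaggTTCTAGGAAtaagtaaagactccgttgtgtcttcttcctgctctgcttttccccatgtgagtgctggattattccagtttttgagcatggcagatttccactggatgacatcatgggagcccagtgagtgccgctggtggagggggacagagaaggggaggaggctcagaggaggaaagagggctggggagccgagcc

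Member promoters were also rich in CpG. The median ratio of observed to expected CpG was 0.8547 in member promoters, 0.7269 in those of the table's genes and 0.3836 in all. The March1 start farthest downstream (chr8:66386051-66386300, plus strand) is an exception with no CG in the 250 bases before it, and Rnf149 (chr1:39577348-39577597, minus strand), called higher with March1 in macrophages and sDCs, has 29. Usp25 (chr16:77013819-77014068, plus strand), higher with LPS, has 47. Capitals mark each CG:
March1, downstream start: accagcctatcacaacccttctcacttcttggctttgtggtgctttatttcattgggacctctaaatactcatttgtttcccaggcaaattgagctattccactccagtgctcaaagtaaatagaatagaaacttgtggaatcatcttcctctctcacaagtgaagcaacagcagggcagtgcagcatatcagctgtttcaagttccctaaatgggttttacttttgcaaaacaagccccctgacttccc
Rnf149: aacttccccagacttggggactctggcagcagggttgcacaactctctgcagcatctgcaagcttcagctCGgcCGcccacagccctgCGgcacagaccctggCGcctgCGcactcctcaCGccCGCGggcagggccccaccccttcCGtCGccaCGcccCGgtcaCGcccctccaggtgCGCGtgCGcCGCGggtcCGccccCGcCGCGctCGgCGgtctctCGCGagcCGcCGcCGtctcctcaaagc
Usp25: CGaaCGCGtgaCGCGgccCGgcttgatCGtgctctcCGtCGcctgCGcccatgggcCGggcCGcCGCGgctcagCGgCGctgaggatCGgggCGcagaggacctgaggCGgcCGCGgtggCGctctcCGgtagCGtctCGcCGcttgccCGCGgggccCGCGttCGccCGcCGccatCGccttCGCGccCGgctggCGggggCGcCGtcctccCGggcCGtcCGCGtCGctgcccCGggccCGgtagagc
The windows of these 3 genes are thus unlike in composition, and those of Rnf149, Usp25 and Peli1 hold none of the 4 motifs.

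Rnf149 (NCBIM37 chr1:39608141-39634250, minus strand) stood at 9943.5, 13625.5, 8650 and 19254 in macrophages in the order untreated, IL-10, LPS and both. In neutrophils it stood at 2033, 2271.5, 4037.5 and 10107.5, and in sDCs at 976.5, 1471.5, 803 and 2018. The group given both was the highest in these 3 cell types, above LPS by 1.15, 1.32 and 1.33 on the log2 scale. Mast cells were between 651.5 and 792 in their 4 groups. In neutrophils alone LPS also came close to 2-fold (0.99). The exons of Rnf149 share 707 bases with Gm15832 on the same strand.

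Fbxl5, the iron-sensing F-box protein that sends iron regulatory protein 2 to the proteasome (chr5:44135855-44212878, minus strand), stood at 1268 in untreated macrophages, 2297.5 with IL-10, 1496.5 with LPS and 6152 with both. In neutrophils it stood at 6809.5, 14702.5, 10163 and 26872. IL-10 plus LPS was above LPS by 2.04 and 1.40 on the log2 scale, and by 0.37 in sDCs and 0.26 in mast cells. Its neutrophil value with IL-10 alone, 1.11 above untreated, was the only neutrophil call in that comparison.

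The neutrophil calls of Fbxl5 depend on the counts assigned to a single transcript. ENSMUST00000119523 was listed at 0 in untreated neutrophils, 2211.5 with IL-10, 3117 with LPS and 13878 with both, and at 0 in all other groups but LPS-treated mast cells (11). The main transcript, ENSMUST00000047857, shares 9 exons with it; it has the longer form of an inner exon (44164683-44164898, 216 bases, against 44164683-44164847, 165 bases) and of the first exon (185 against 154 bases). Without ENSMUST00000119523 the neutrophil sums were 6809.5, 12491, 7046 and 12994, and the differences were 0.88 for IL-10 against untreated and 0.88 for IL-10 plus LPS against LPS, both under 2-fold. As it was listed at 0 in untreated neutrophils, leaving it out could only lower the treated groups. RSEM apportions reads of shared exons between transcripts, so these sums may lack reads of the gene. How the reads were split was not tested. Counts were normalised for GC content per transcript, so the sum over all transcripts may depend on the split too. The macrophage difference does not involve this transcript: ENSMUST00000047857 alone went from 1169.5 with LPS to 4893.5 with both. Fbxl5 exons also share 99 bases with Bst1 on the other strand.

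**Figure D4:**
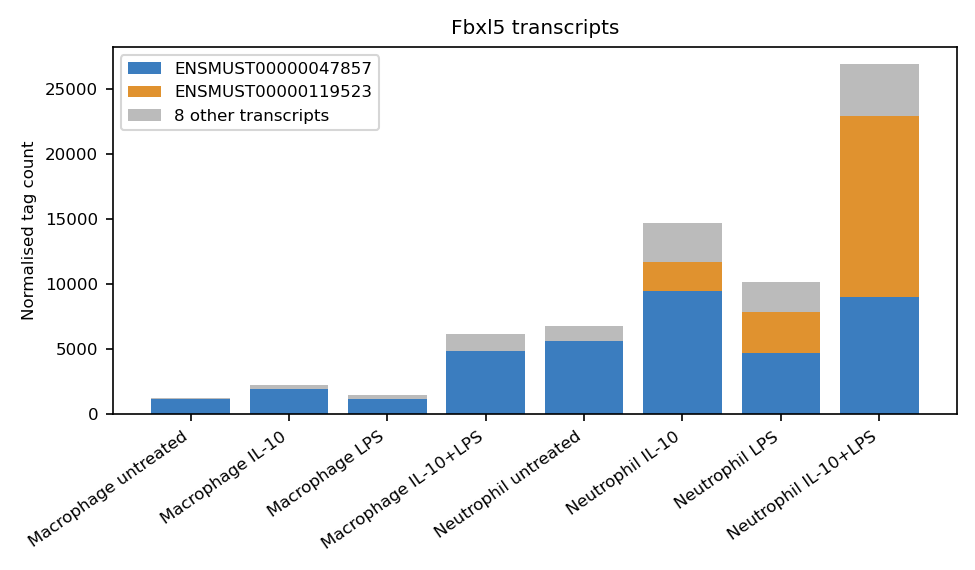
Normalised tag count of Fbxl5 (vertical axis, authors' means) in the 4 macrophage and 4 neutrophil groups, stacked by transcript: ENSMUST00000047857 in blue, ENSMUST00000119523 in orange and the 8 other transcripts in grey. The orange part is absent from the macrophage groups and from untreated neutrophils and reaches 13878 in neutrophils given IL-10 plus LPS.

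Lower values with IL-10 plus LPS than with LPS were found for Peli1 in macrophages (8250 to 3804, -1.12 on the log2 scale) and Usp25 in neutrophils (8733.5 to 4361, -1.002). Both were called higher with LPS in the same cells. Peli1 differed by -0.34 in neutrophils and -0.24 in sDCs, and Usp25 by -0.03 in macrophages and -0.70 in sDCs; whether the cell types differ was not tested. The largest transcript of Usp25 alone gave -0.99 in neutrophils, just under the limit. Fbxl22 was also lower in macrophages (55 to 11.5), as were Fbxo36 (18 to 7) and Rnf152 (13 to 2.5). In mast cells the members higher with both were March1, Rnf150 (157.5 to 469, 1.57) and Ube2cbp, listed at 0 with LPS and at 32.5 with both.

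By role, 12 of 34 genes listed for Toll-like receptor and NF-kB signalling were members in the table. With LPS, 2 were called higher in macrophages (Peli1 and Usp25), 1 in neutrophils (Usp25), 2 in sDCs (Peli1 and Usp25) and 0 in mast cells and eosinophils, and 0 were called lower in any cell type. Of all genes 12.7%, 8.71% and 9.04% were called higher in the first 3 cell types, so these counts are near the background. The list's median was 0.21, 0.39 and 0.41 on the log2 scale in the same 3, beside -0.15, -0.03 and -0.14 for all genes. Ube2n, which builds lysine-linked signalling chains with Ube2v1, was above untreated in 5 of 5 cell types but by 0.53 at most. Of 7 of 11 genes listed for antigen presentation and surface receptor turnover, 0 were higher with LPS in any cell type. Lower were 1 in macrophages (Rnf128, beside 14.8% of all genes), 1 in neutrophils (Rnf167, beside 7.88%), 3 in sDCs (March1, Rnf128 and Rnf130, beside 11.5%) and 0 in mast cells and eosinophils. Of 13 of 20 genes listed for the cell cycle and DNA damage, Ube2t in macrophages (64.5 to 24) was the only call with LPS.

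A total of 81 of 117 members, or 69.23%, were called in none of the comparisons in which they were kept, beside 51.51% of genes. They include the E2 enzymes Ube2d3, Ube2n and Ube2s, the cullins Cul2, Cul3 and Cul5, and Ube3b. Rnf2, the catalytic RING of Polycomb repressive complex 1, varied over the untreated cells only between 757 in sDCs and 913 in eosinophils.

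Of 101 other genes of the ubiquitin pathway listed for comparison, 48 were in the table. With LPS, 8 were higher and 1 lower in macrophages, 6 higher and 1 lower in mast cells, and 4 higher and 2 lower in sDCs. Neutrophils had 5 higher and eosinophils 2, with 0 lower in both. The shares called were 18.75% in macrophages, 14.89% in mast cells, 12.5% in sDCs, 10.42% in neutrophils and 4.348% in eosinophils, beside 27.6%, 10.2%, 20.5%, 16.6% and 2.86% of all genes. Tnfaip3, the deubiquitinase A20 that restrains NF-kB, was higher in all 5, by 1.75 on the log2 scale in mast cells, 2.06 in eosinophils, 2.24 in sDCs, 2.71 in macrophages and 3.96 in neutrophils. No member was called higher in that many. Dtx3l, a ligase that acts with a poly(ADP-ribose) polymerase, was higher in the 4 cell types other than eosinophils (from 679.5 to 4978 in neutrophils), and Birc3, the inhibitor of apoptosis cIAP2, in macrophages, neutrophils and mast cells. With IL-10 plus LPS, Dtx3l was below LPS alone in neutrophils (4978 to 1964, -1.34) and mast cells (3865.5 to 1075, -1.85). In macrophages and sDCs it differed by -0.10 and -0.16. Nedd4, a HECT ligase, was lower in sDCs with LPS (9400 to 1978.5) and with IL-10 (to 3990.5). Stambpl1, a deubiquitinase of the JAMM family, was higher with IL-10 plus LPS than with LPS in macrophages (337.5 to 984.5) and neutrophils (1207 to 2587.5), the 2 cell types in which Fbxl5 was called.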

How the data were processed

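RNA from 36 libraries, 2 biological replicates from independent mice for each of 18 groups, was used; 1 further sample, of T cells, was not analysed here. According to the study's methods and the submitters' processing notes, the authors aligned reads to Ensembl transcripts (mm9) with RSEM 1.2.1 and Bowtie 0.12.9, normalised tag counts for GC content with EDASeq and deposited the mean of the replicates as a score per transcript, in steps of 0.5. The values are not raw counts: all 18 columns have the same highest value, 185338, so their totals say nothing of depth, which is not in the table and limits the precision of low values. The replicate 1 libraries of untreated and IL-10 macrophages are re-analyses of earlier ones, and the sDC libraries and replicate 2 of the mast cells used another library kit; these cannot be separated in group means. No source used here says whether counting used strand.

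The table had 17015 whole lines and ended in 1 broken line, which was left out, so it may be cut short and genes not in it were not analysed here; 22 rows without a name (0.1293%) were left out too, and 0 columns were unmapped. Transcripts were summed by gene name, 1 was added and log2 taken (Python 3.11.15, pandas 2.3.3, numpy 2.4.6). Differences of 2-fold were called without a test, and the code was tested on simulated data. Positions are those of the GENCODE annotation on NCBIM37 (mm9; all 117 members matched). Members and lists were chosen with earlier results of these data known. Genes were named by these rules: the 8 members called in the most cell types for each treatment, the 3 largest rises and falls per comparison with a sum of at least 50, those on the role lists, those 4-fold over the next cell type, and the 101 pathway genes; others named, such as Cul2, Cul3, Cul5, Rnf34, Rnf145, Fbxw4, Usp6nl and Ube3b, were chosen after their values were seen. Alternatives were a pseudocount of 10, a minimum of 50 or none, a 1.5-fold limit, the largest transcript alone and centring on the median of all genes.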

Additional observations from a re-analysis of the deposited data

Results flagged for a closer look

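Fbxo47, an F-box protein, passed 2-fold in opposite directions in different cell types with LPS. Its log2 fold change against untreated was -1.68 in macrophages (15 to 4), 1.5 in neutrophils (5 to 16) and -1.22 in mast cells (20 to 8). All 18 of its values were 25.0 or less, with a single authors' mean per group, and the difference between the cell types was not tested.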

How the results depend on the processing

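No paired analysis was possible because the columns hold group means that carry no replicate, and for the same reason leaving out a replicate could not be run. Without replicate spread or depth, no difference here has an error, and low values are the least certain. The share of members called stayed below that of all genes in 17 of 17 comparisons with a pseudocount of 10, no minimum, a 1.5-fold limit and centring, and in 16 of 17 with a minimum of 50 and with the largest transcript only. The exception, macrophages with IL-10 plus LPS against LPS, turned to 5.45% of members against 4.77% of all genes and to 11.5% against 11.1%. Centring on the median of all genes, which lay between -0.1504 (macrophages, LPS) and 0.0441, moved no count by more than 1.5 times.

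A 1.5-fold limit raised the LPS calls to 38, 31, 30, 19 and 3 (macrophages, neutrophils, sDCs, mast cells and eosinophils, in that order), the IL-10 calls to 4, 6 and 5 in the first 3 cell types, those of IL-10 plus LPS against LPS to 13, 7, 5 and 11, and those against IL-10 to 36, 22, 24 and 13. A pseudocount of 10 left 1 LPS call in mast cells, 0 IL-10 calls in macrophages, 5 of IL-10 plus LPS against LPS in macrophages and 0 against IL-10 in mast cells. A minimum of 50 left 2 LPS calls in mast cells, 0 in eosinophils, 0 IL-10 calls in macrophages and 0 of IL-10 plus LPS against IL-10 in mast cells, and no minimum gave 2 IL-10 calls in both macrophages and neutrophils. With the largest transcript only, LPS calls in mast cells were 8, IL-10 calls 4 in macrophages and 0 in neutrophils, those of IL-10 plus LPS against LPS 13 in macrophages and 5 in neutrophils, and those against IL-10 in mast cells 4. Leaving out ENSMUST00000119523, chosen after its values were seen, took both neutrophil calls of Fbxl5 away, but reads from exons shared with other Fbxl5 transcripts may have gone with it. The cause of the other moves was not tested.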

Other observations

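Transcripts of a member did not always move as one. Of the 83 members with more than 1 transcript, 50 had the same largest transcript in all 18 groups. Exons of 34 of the 117 members overlap exons of another gene on either strand.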
